A study of Mus musculus with 14 samples.

Results

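The Hox genes encode homeodomain transcription factors that tell a cell where along the body axis it lies. In the mouse they stand in 4 clusters, Hoxa to Hoxd, and genes near the 3′ end of a cluster are switched on early and in anterior tissue, whereas genes towards the 5′ end are switched on later and in posterior tissue. Polycomb complexes keep unused members silent, and fibroblasts are known to carry the Hox pattern of the place they were taken from through long culture. The members were all genes of the deposited count matrix whose symbol is Hoxa, Hoxb, Hoxc or Hoxd followed by a number, which gave 39 of 28022 genes. There were 11 members of Hoxa, 10 of Hoxb, 9 of Hoxc and 9 of Hoxd. By paralog group they were split into 12 anterior genes (groups 1 to 4), 11 central genes (5 to 8) and 16 posterior genes (9 to 13).

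RNA-seq counts came from 14 libraries, 2 for each of 7 conditions, all labelled C57BL/6J. Fib were mouse embryonic fibroblasts prepared at mid-gestation, and 2D-iHepSC were hepatic stem cells induced from such fibroblasts with lentiviral Oct4 and Hnf4α and grown flat. 2D-iHepSCiEC were the same cells grown flat together with endothelial cells induced from human adult fibroblasts with ETV2. 3D-iHA were organoids of the induced hepatic cells alone, 3D-iHEA were assembloids of both cell types, and Adult-Liver and Fetal-Liver were tissue of adult male mice and of mid-gestation embryos. The 4 cultures shared 1 medium with oncostatin M, bFGF and VEGF, so no culture differs from Fib by conversion alone. Whether the induced cells were 1 clone, and from which part of the embryo the fibroblasts came, is not given in the sources used here. Each label reads replicate 1, so p-values measure the spread between libraries, which may be technical. In the co-cultures a read from a human cell is counted only where it aligns to a mouse gene, and the counts of both species cannot be told apart.

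Total counts were 20851489 to 35143325 per library, and a count of 3 stood for 0.0854 to 0.144 CPM (counts scaled to a library size of 1e+06) of these totals. All further CPM are on library sizes scaled by TMM, edgeR's trimmed mean. Of 12 fibroblast markers, 12 were over 3 counts in both Fib libraries with a summed level of 29223 to 30600 CPM, against 5.42 to 14.4 CPM in the 8 culture libraries. The hepatocyte marker Alb had 2 to 210 counts in the cultures and at least 268280 in each liver library, the fetal hepatic marker Afp had 439 to 1172 in the cultures, and the cholangiocyte marker Krt19 had 16159 to 31981. The lists were mixed in 2D-iHepSC against Fib: 2 of 4 fetal hepatic markers were higher and 2 lower, 3 of 5 cholangiocyte markers higher and 2 lower, 5 of 10 hepatocyte markers higher and 0 lower, and 4 of 8 endothelial markers higher and 1 lower. Over all genes tested 23.1% were higher and 22.8% lower by the same rule, which is given below. The endothelial marker Cdh5 had 14322 and 16261 counts in 2D-iHepSC, which hold no endothelial cells by label. The Fetal-Liver libraries differed most from each other, over all genes as well as in Hox genes. The chi-square of the difference was 13.2 per gene over all genes, against 2.93 to 11.4 in the other conditions, and 9.61 per Hox gene, against 0.411 to 1.72. The summed Hox level of the second was 1.61 times that of the first. The fibroblast markers summed to 1882 CPM in the first and 3107 CPM in the second, and the part of this in the Hox difference was not tested. In bulk libraries, fewer cells with a gene on and less RNA per cell cannot be told apart.

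The Fib libraries expressed 17 of the 39 Hox genes, the cultures lost most of them, and what remained came almost wholly from Hoxa. A gene was taken as detected in a condition at a mean of at least 1 CPM with every library over 3 counts, and at the floor when no library was over 3 counts. Of the 17 genes detected in Fib, those kept in all 4 cultures included Hoxa5 and Hoxa7, 7 were at the floor in all 4 and are called erased (Hoxb2, Hoxb6, Hoxb7, Hoxb8, Hoxb9, Hoxd8, Hoxd9), and 7 lay between (Hoxa2, Hoxa3, Hoxa4, Hoxa6, Hoxb3, Hoxb4, Hoxb5). A further 3 genes were not detected in Fib and were detected in every culture: Hoxa9, Hoxa10 and Hoxa13. The other 19 were detected in neither. By cluster, the kept and the gained genes were Hoxa, and the erased genes were 5 of Hoxb and 2 of Hoxd. By position, Hoxa5 and Hoxa7 are central, whereas the 3 gained genes are posterior. These classes are descriptions of levels with no test.

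**Figure D1:**
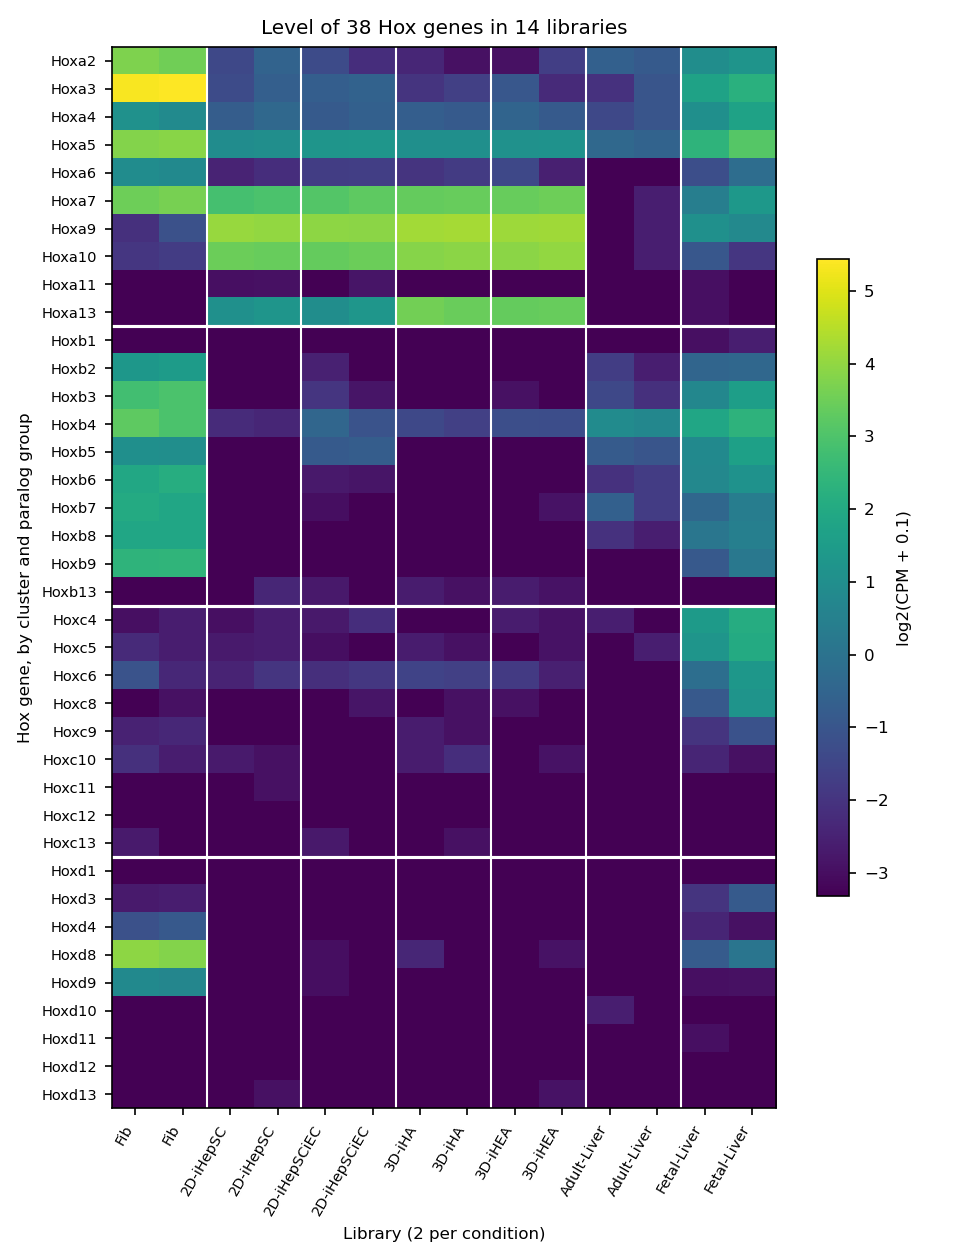
Level of 38 of the 39 Hox genes (rows, by cluster and paralog group) in each of the 14 libraries (columns, 2 per condition), as log2(CPM + 0.1). Hoxb and Hoxd rows that are bright in Fib are dark in the 8 culture columns, Hoxa9, Hoxa10 and Hoxa13 are brightest in the cultures, and Hoxc4 to Hoxc8 are brightest in Fetal-Liver.

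The summed level of the Hox genes was 142.6 and 142.8 CPM in the Fib libraries. It was 43.9 to 44.9 CPM in the 4 flat libraries and 59.0 to 61.4 CPM in the 4 organoid and assembloid libraries, so that Fib held 3.23 and 2.37 times as much. Hoxa gave 61.3% and 62.9% of the Hox counts of Fib and 96.0% to 99.2% of those of the cultures. Hoxb gave 25.7% and 25.8% in Fib and 0.252% to 3.29% in the cultures, and Hoxd 11.1% and 12.3% in Fib and at most 0.152% in the cultures. Posterior genes gave 5.11% and 5.21% of the Hox counts of Fib and 62.4% to 74.9% of those of the cultures. Anterior genes moved the other way, from 55.45% and 55.46% in Fib to between 3.94% and 11.4% in the cultures. Fetal-Liver had 5.77% and 9.21% posterior counts, and Adult-Liver, at 5.20 and 5.56 CPM in all, had 1.22% and 2.50%.

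**Figure D2:**
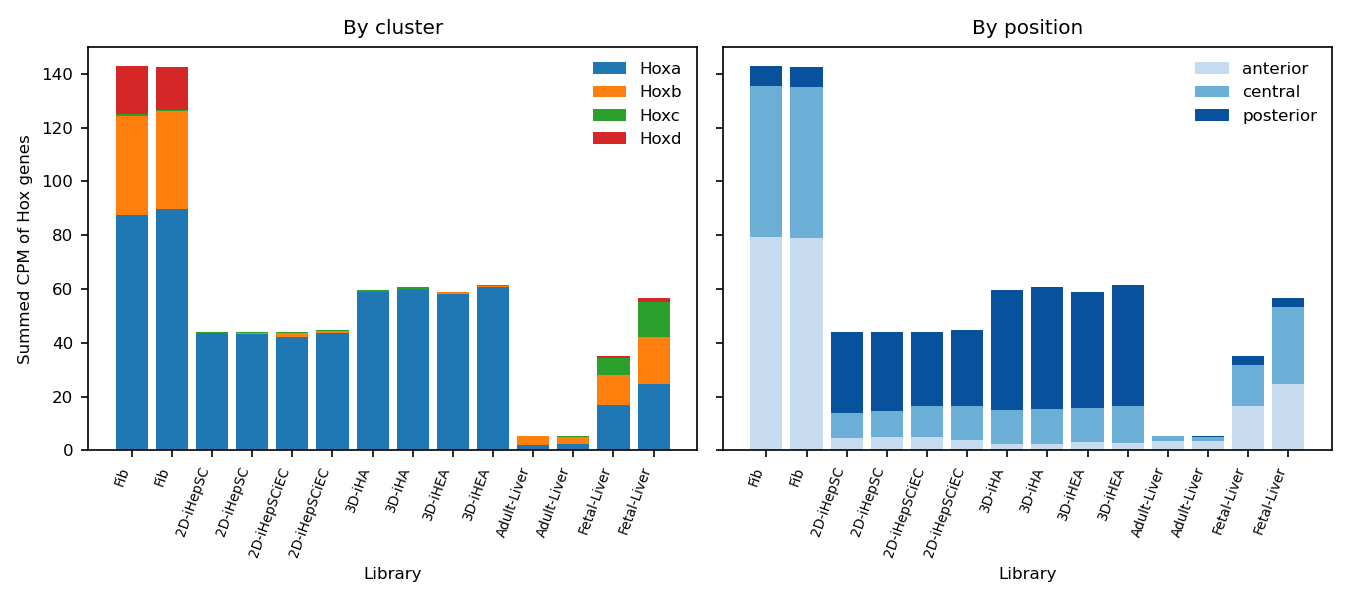
Summed CPM of the Hox genes in each of the 14 libraries, stacked by cluster (left) and by position (right). The culture bars are nearly all Hoxa and mostly posterior, while Fib, Fetal-Liver and Adult-Liver bars hold several clusters and few posterior counts.

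The comparison of 2D-iHepSC with Fib asks what the conversion left of the fibroblast pattern. In a quasi-likelihood fit (edgeR) over all 14 libraries, 24 of the 39 members had a mean of at least 5 counts and were tested among 16430 genes. At an adjusted p under 0.05 and at least a 2-fold difference, 15 members were lower in 2D-iHepSC, where 22.8% of all genes tested were, and 3 were higher, where 23.1% of all genes were. The median log2 difference of the 24 was -4.45, or -4.11 with the 10 genes of an all-zero group set to their bound, against 0.08 over all genes tested. The 24 members tested are those that passed the filter on low counts, which a high level in 1 condition is enough to pass.

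The Hoxa cluster lies on the minus strand of chromosome 6 of GRCm38 with Hoxa13 at its 5′ end, and its members did not move together. Hoxa7, a trunk gene, had 424 and 389 counts in Fib and 258 and 250 in 2D-iHepSC, 11.9 ± 0.77 against 7.44 ± 0.42 CPM (SD, n = 2). Its log2 difference of -0.68 ± 0.16 had an adjusted p of 0.0011 and did not reach 2-fold. Hoxa5, which patterns the cervical and thoracic region and the lung, was kept by the detection rule but fell 7.68-fold, from 520 and 457 counts to 65 and 62 (adjusted p = 8.11e-10, edgeR). It stayed at 57 to 89 counts in all 8 culture libraries.

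Further anterior and central Hoxa genes were lower in 2D-iHepSC. Hoxa3, a pharyngeal arch gene, had 1505 and 1349 counts in Fib and 11 and 17 in 2D-iHepSC, a 101.02-fold fall (adjusted p = 2.02e-13). Hoxa2, the selector of the second arch, fell 28.9-fold, from 491 and 362 counts to 10 and 19 (adjusted p = 4.32e-10). Hoxa4 fell from 77 and 54 counts to 18 and 22, and Hoxa6 from 68 and 52 to 3 and 4. Both passed the test. Part of the Hoxa3 and Hoxa7 exons is shared with antisense genes (25.4% and 20.4% of exon bases), and since the treatment of strand is not given, sense and antisense reads cannot be told apart there. The antisense genes Hoxaas2 and Hoxaas3 fell as well, Hoxaas2 from 693 and 574 counts to 24 and 20 (log2 difference -4.84 ± 0.20).

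The posterior Hoxa genes went up. Hoxa9, a trunk and blood progenitor gene, had 5 and 11 counts in Fib and 613 and 523 in 2D-iHepSC, 69.6-fold higher (log2 difference 6.12 ± 0.21, adjusted p = 6.28e-14). Hoxa10, which acts in the uterus and limb, rose from 6 and 6 counts to 401 and 336 (log2 difference 5.91 ± 0.24, adjusted p = 7.25e-13). Hoxa13, the most posterior gene of the cluster, which acts in the distal limb and hindgut, had 0 counts in both Fib libraries and 72 and 74 in 2D-iHepSC, at least 24.2-fold higher when 3 counts are set for each Fib library (adjusted p = 5.58e-09). In each of the 3 genes every culture library lay above both Fib libraries. Hoxa11, which lies between Hoxa10 and Hoxa13, had 0 or 1 count in each of the 14 libraries, so no gain was detectable there at this depth.

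**Figure D3:**
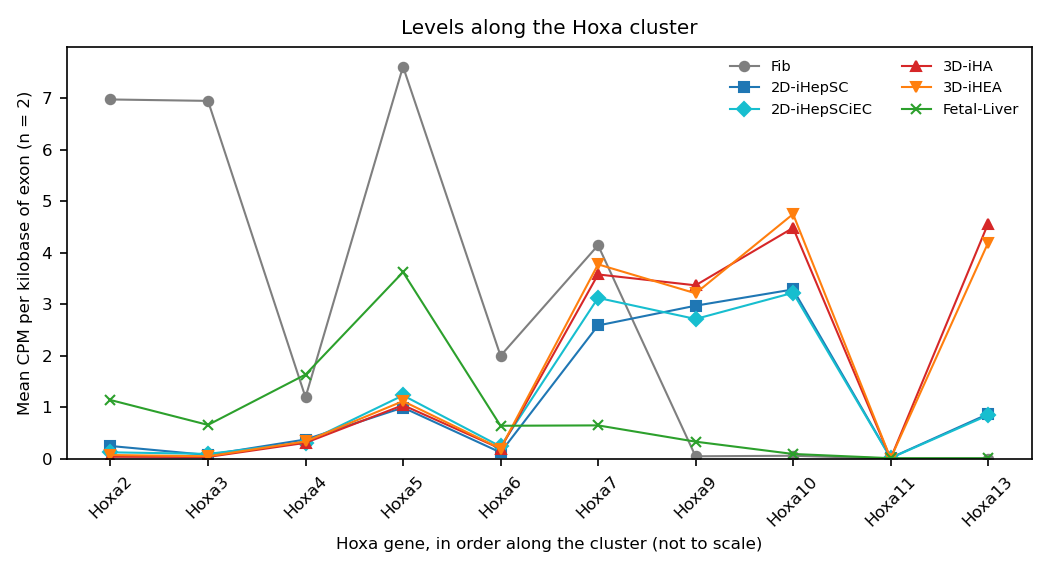
Mean level per kilobase of exon (CPM per kilobase, 2 libraries a condition) of 10 Hoxa genes in their order along the cluster, for Fib, the 4 cultures and Fetal-Liver. Fib peaks at Hoxa2, Hoxa3 and Hoxa5, the cultures at Hoxa7, Hoxa9 and Hoxa10 (in 3D also at Hoxa13), and Hoxa11 is at the baseline in every line.

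Per kilobase of exon, the order of the levels turned round. In Fib the mean was 7.62 CPM per kilobase for Hoxa5, 6.98 for Hoxa2, 6.95 for Hoxa3 and 0.0436 for Hoxa9. In 2D-iHepSC it was 3.29 for Hoxa10, 2.97 for Hoxa9, 2.59 for Hoxa7 and 0.0691 for Hoxa3. In 3D-iHA it was 4.57 for Hoxa13 and 4.48 for Hoxa10, and in 3D-iHEA 4.19 for Hoxa13 and 4.75 for Hoxa10.

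To show the start regions of the genes that were gained, the silent gene between them and 2 erased genes, the 250 bases before a RefSeq start are given for 6 members (GRCm38.p6, written 5′ to 3′ on the gene's strand). The windows are chr6:52260881-52261130, chr6:52245811-52246060, chr6:52234940-52235189 and chr6:52227371-52227620 on the minus strand for the Hoxa genes, chr11:96281655-96281904 for Hoxb8 and chr2:74704365-74704614 for Hoxd8 on the plus strand. Capitals mark the letters TTTAT on either strand (ATAAA when read on the printed strand), a core found in sites of caudal-type and posterior HOX proteins.
Hoxa13: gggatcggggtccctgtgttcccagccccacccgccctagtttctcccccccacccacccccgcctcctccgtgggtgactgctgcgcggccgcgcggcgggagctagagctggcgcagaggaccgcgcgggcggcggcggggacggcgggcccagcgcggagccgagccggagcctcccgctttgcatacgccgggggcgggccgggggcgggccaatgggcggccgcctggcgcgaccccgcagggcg
Hoxa11: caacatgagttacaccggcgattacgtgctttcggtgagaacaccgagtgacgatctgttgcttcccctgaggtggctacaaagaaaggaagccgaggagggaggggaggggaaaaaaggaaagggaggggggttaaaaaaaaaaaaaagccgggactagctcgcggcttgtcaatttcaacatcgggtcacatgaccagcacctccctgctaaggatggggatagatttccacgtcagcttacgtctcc
Hoxa10: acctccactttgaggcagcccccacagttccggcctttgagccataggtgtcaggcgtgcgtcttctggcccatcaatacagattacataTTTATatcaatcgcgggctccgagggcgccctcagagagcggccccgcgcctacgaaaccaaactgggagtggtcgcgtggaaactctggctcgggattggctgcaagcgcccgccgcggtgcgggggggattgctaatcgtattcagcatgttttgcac
Hoxa9: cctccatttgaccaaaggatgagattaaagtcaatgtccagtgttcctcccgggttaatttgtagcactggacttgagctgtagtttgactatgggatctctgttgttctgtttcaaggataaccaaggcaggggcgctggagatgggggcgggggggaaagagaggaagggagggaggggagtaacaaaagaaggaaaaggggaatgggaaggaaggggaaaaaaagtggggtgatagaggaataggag
Hoxb8: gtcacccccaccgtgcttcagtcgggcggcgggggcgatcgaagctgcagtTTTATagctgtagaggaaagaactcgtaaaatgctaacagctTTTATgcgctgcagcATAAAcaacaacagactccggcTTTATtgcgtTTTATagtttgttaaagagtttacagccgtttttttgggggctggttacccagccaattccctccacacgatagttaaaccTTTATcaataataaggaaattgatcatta
Hoxd8: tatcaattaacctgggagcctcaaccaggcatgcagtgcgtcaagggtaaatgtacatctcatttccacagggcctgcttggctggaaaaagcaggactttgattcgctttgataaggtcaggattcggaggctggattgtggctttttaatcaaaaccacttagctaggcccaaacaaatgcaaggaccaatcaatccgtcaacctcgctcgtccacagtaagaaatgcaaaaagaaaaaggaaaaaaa

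Windows were at hand for 22 of the 39 members, 24 in all. The letters TTTAT stood on either strand in 9 of the 24, or 37.5%, and in 37.3% of the windows of 32841 starts of all genes. Among the 6 printed, Hoxb8 had 6 matches, Hoxa10 had 1 and the others had none. CpG dinucleotides numbered 2 to 35 per Hox window with a median of 12.5, against a median of 6 over all genes. Hoxa13 had 35, Hoxa10 had 20 in the printed window and 7 in that of a second RefSeq start, Hoxa11 had 13, Hoxb8 had 12, Hoxd8 had 6 and Hoxa9 had 3, so gained, silent and erased genes did not fall apart by this number. A match of letters is a description of the window and not a binding site.

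The Hoxb cluster (chr11:96194316-96368256) was active in Fib from Hoxb2 to Hoxb9 and close to silent in 2D-iHepSC. All 8 of these genes passed the test as lower, and 7 of them had 0 counts in both 2D-iHepSC libraries. Hoxb4, which acts in blood stem cells, was the highest of them in Fib per kilobase, with 353 and 240 counts, and had 4 and 3 in 2D-iHepSC, an 80.8-fold fall (log2 difference -6.34 ± 0.34, adjusted p = 3.23e-11). Hoxb3 went from 253 and 240 counts to 0 and 0, at least 82.3-fold lower (52.9% of its exon bases are shared with the antisense gene Hoxb3os, and 27.3% of those of Hoxb2), and Hoxb9, a thoracic gene, from 188 and 163 to 0 and 0, at least 58.4-fold lower. For Hoxb9 DESeq2 did not make the call (adjusted p = 0.0930). Hoxb8 and Hoxb9 had 0 counts in all 8 culture libraries. The bounds of the other zero genes ran from 22.1-fold for Hoxb5 to 45.8-fold for Hoxb6.

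In the Hoxd cluster (chr2:74668310-74765142), Hoxd8 stood at 5.34 CPM per kilobase in Fib, between Hoxa7 and Hoxa5, with 577 and 432 counts. It had 0 to 3 counts in each culture library. The fall in 2D-iHepSC was at least 167-fold (adjusted p = 2.77e-10). Hoxd9 went from 63 and 47 counts to 0 and 0 in 2D-iHepSC, at least 18.2-fold lower. Hoxd4 had 13 and 14 counts in Fib and 0 in all 8 culture libraries, a gene that was not tested and that shares 52.3% of its exon bases with its sense neighbours. The digit genes Hoxd10 to Hoxd13 had at most 1 count in any library. The Hoxc cluster (chr15:102921103-103036852) was hardly used in Fib or in the cultures: its highest member there per kilobase, Hoxc6, had 14 and 3 counts in Fib and 2 to 8 in the cultures (log2 difference of 2D-iHepSC -1.04 ± 0.85, adjusted p = 0.276). Over the 4 clusters, 11 members had no library over 3 counts in any condition, and 3 of these (Hoxc12, Hoxd1, Hoxd12) had 0 counts throughout.

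Both livers give a reference for tissue. Fetal-Liver against Fib had 5 of the 24 members higher, where 29.0% of all genes tested were, and 15 lower, where 24.5% were, with a median log2 difference of -1.38 against 0.10 over all genes. The higher ones were Hoxa9 with 68 and 50 counts in Fetal-Liver, and Hoxc4 (88 and 127), Hoxc5 (76 and 122), Hoxc6 (27 and 72) and Hoxc8 (15 and 68), which had 0 to 14 counts in Fib. The 15 lower ones included Hoxa3, 10.7-fold lower with 109 and 141 counts, and Hoxb4, 2.02-fold lower with 118 and 153 counts. Without the first Fetal-Liver library Hoxb4 (log2 difference -0.77), Hoxa5 (-0.74) and Hoxb6 (-0.93) fell short of 2-fold, as did Hoxb4 without the first Fib library (-0.86) and Hoxb4 (-0.92) and Hoxa5 (-0.98) with upper-quartile scaling. Hoxa7 was 6.49-fold lower with 42 and 75 counts. The limb field genes Tbx4 and Tbx5 also differed between the Fetal-Liver libraries, with 15 and 145 counts and 35 and 188 counts, the same library being high as for Hoxc8, and their part in the Hox values was not tested. Of the cell type markers, 7 of 7 erythroid and 7 of 8 haematopoietic ones (1 lower) were higher in Fetal-Liver than in Fib, and 10 of 12 fibroblast ones lower (1 higher). Also higher were 8 of 8 endothelial, 8 of 10 hepatocyte and 4 of 4 fetal hepatic markers, and of 5 cholangiocyte markers 3 were higher and 2 lower.

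**Figure D4:**
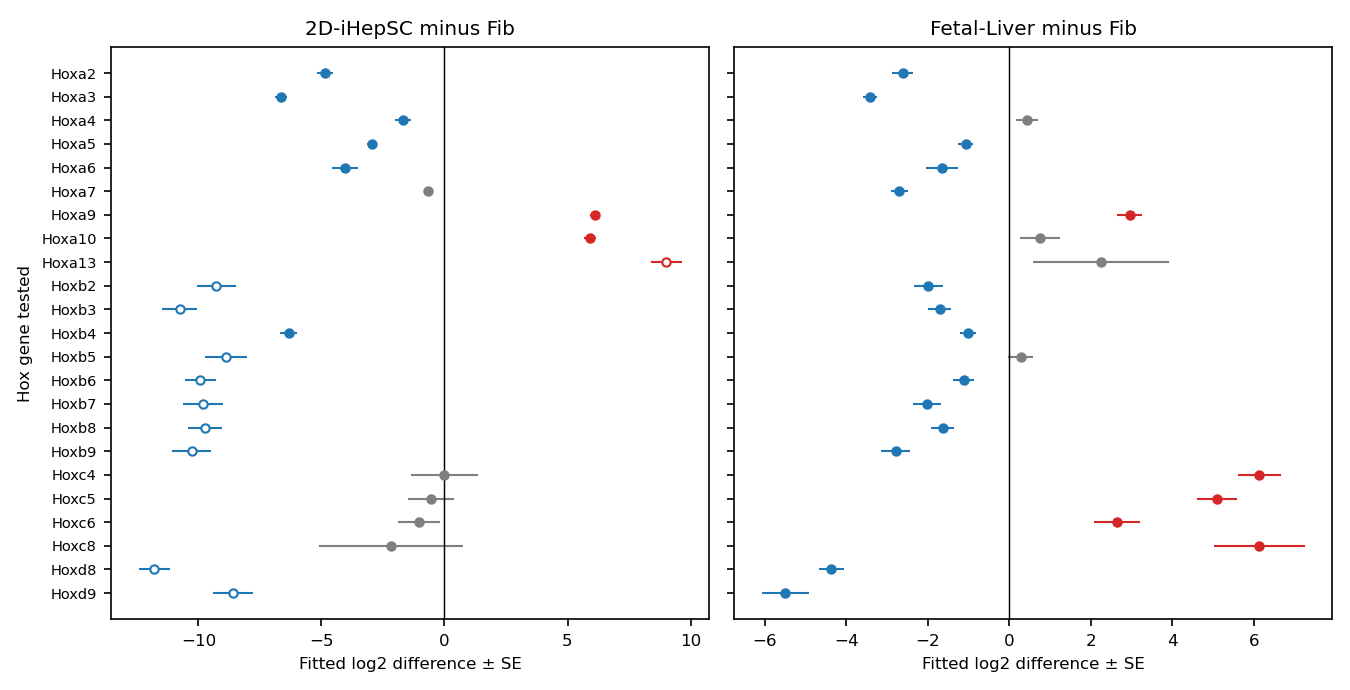
Fitted log2 difference with its SE (bars) for 23 of the 24 Hox genes tested, for 2D-iHepSC minus Fib (left) and Fetal-Liver minus Fib (right), red for higher, blue for lower and grey for genes that did not pass. Hollow points had 0 counts in both libraries of 1 condition, where the fitted size depends on the prior count and is not a bound. The Hoxb and Hoxd points lie far below 0 on the left, and Hoxc4, Hoxc5, Hoxc6 and Hoxc8 pass as higher on the right only. Both panels share the Fib libraries.

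2D-iHepSC against Fetal-Liver had 5 members higher, where 22.5% of all genes were, and 18 lower, where 30.0% were. The higher ones included Hoxa7, Hoxa9, Hoxa10 and Hoxa13. Hoxa9 was 9.01-fold higher (log2 difference 3.17 ± 0.15, adjusted p = 3.07e-12) and Hoxa10 35.9-fold (5.16 ± 0.22, adjusted p = 1.36e-12). Hoxa13 had 1 and 0 counts in Fetal-Liver against 72 and 74. The lower ones held the 8 Hoxb genes, the 4 Hoxc genes tested, Hoxd8 and 5 Hoxa genes. In the same comparison 7 of 7 erythroid, 6 of 8 haematopoietic (1 higher) and 12 of 12 fibroblast markers were lower. So were 7 of 8 endothelial (1 higher), 8 of 10 hepatocyte and 4 of 4 fetal hepatic markers, while 3 of 5 cholangiocyte markers were higher and 0 lower. The part of these markers in the Hox differences was not tested. The median log2 difference of the 24 Hox genes was -4.51, or -3.09 with 9 genes at their bound, against -0.09 over all genes. Adult-Liver against Fetal-Liver had 22 members lower, where 28.8% of all genes were, and 0 higher by edgeR at the adjusted or at an unadjusted p under 0.05 or by DESeq2, where 25.3% of all genes were higher. Only Hoxb4 was detected in Adult-Liver, with 26 and 24 counts, 2.55-fold lower than in Fetal-Liver (adjusted p = 0.000186). Of the cell type markers, 7 of 7 erythroid, 6 of 8 haematopoietic (1 higher) and 10 of 12 fibroblast ones (2 higher) were lower in Adult-Liver. The other lists differed: 2 of 8 endothelial markers were higher and 1 lower, and 1 of 5 cholangiocyte markers higher and 1 lower. All 10 hepatocyte markers were higher, and of 4 fetal hepatic markers 1 was higher and 3 lower. The fibroblast list summed to 488 to 524 CPM in Adult-Liver against 1882 to 3107 CPM in Fetal-Liver, and the erythroid list to 610 to 657 against 32217 to 32994 CPM. Their part in the Hox difference was not tested.

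Hoxa13 was the 1 member that rose at least 2-fold from flat to 3D growth, and Hoxa2 and Hoxa3, already near 0, fell further. In 3D-iHA and 3D-iHEA together against both flat cultures, 1 of the 24 members was higher, where 12.5% of all genes were, and 2 were lower, where 11.9% were. The median log2 difference of the members was -0.02 and that of all genes -0.01. Hoxa13 had 72, 74, 73 and 56 counts in the flat libraries and 391, 351, 343 and 296 in the 3D libraries, and no 3D library overlapped a flat one. Its level was 2.11 ± 0.23 CPM flat and 10.8 ± 0.67 CPM in 3D (SD, n = 4), 5.16-fold higher (log2 difference 2.37 ± 0.13, adjusted p = 3.04e-10, edgeR). Hoxa10 rose less, from 10.6 ± 0.47 to 15.1 ± 0.71 CPM, with 266 to 401 counts flat and 454 to 502 in 3D. Its log2 difference of 0.51 ± 0.09 (adjusted p = 8.01e-05), like that of Hoxa7 (0.37 ± 0.12, adjusted p = 0.00866) and Hoxa9 (0.21 ± 0.08, adjusted p = 0.0238), did not reach 2-fold. In CPM these 4 genes lay higher in every 3D library than in every flat one, and the share of all genes that do so was not counted. Cell type markers differed between 3D and flat growth as well: 4 of 8 endothelial markers were higher and 2 lower, 3 of 10 hepatocyte markers higher and 0 lower, and 3 of 12 fibroblast markers higher and 2 lower. The endothelial list summed to 475 and 484 CPM in 2D-iHepSC and 410 and 429 CPM in 2D-iHepSCiEC, and to 1215 and 1352 CPM in 3D-iHA and 870 and 944 CPM in 3D-iHEA. Their part in the Hox differences was not tested.

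At the anterior end Hoxa2 had 10, 19, 12 and 3 counts flat and 3, 1, 1 and 6 in 3D (log2 difference -1.87 ± 0.53, adjusted p = 0.00479). Hoxa3 had 11, 17, 20 and 14 counts flat and 5, 7, 14 and 3 in 3D (-1.05 ± 0.39, adjusted p = 0.0247). The flat and 3D libraries overlapped in both, and the calls rest on few reads: that of Hoxa2 was lost without the first 2D-iHepSCiEC library (-1.42), and that of Hoxa3 without the second 2D-iHepSC (-0.84), the second 2D-iHepSCiEC (-1.01), the first 3D-iHA (-0.93) or the unnumbered 3D-iHEA library (-0.74). Hoxa5 had 57 to 89 counts flat and 60 to 69 in 3D, a log2 difference of -0.03 with an interval of -0.37 to 0.30 (95%).

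With human endothelial cells added, 2 Hoxb genes were higher in flat culture and no Hoxa gene passed. In 2D-iHepSCiEC against 2D-iHepSC, 2 members were higher, where 0.158% of all genes were, and 0 were lower at the adjusted or an unadjusted p under 0.05 by edgeR and 0 by DESeq2, where 0.256% of all genes were lower. Both were Hoxb genes. Hoxb5 had 0 and 0 counts in 2D-iHepSC and 18 and 12 in 2D-iHepSCiEC, at least 5.41-fold higher (adjusted p = 0.00403). It had 0 counts in the 4 3D libraries and 73 and 60 in Fib. Hoxb4 had 4 and 3 counts in 2D-iHepSC, 25 and 9 in 2D-iHepSCiEC, 9 and 7 in 3D-iHA and 11 and 9 in 3D-iHEA, and the flat co-culture was 5.00-fold higher than 2D-iHepSC (log2 difference 2.32 ± 0.52, adjusted p = 0.0165). Both calls were lost without the first 2D-iHepSC library (edgeR, adjusted p = 0.0504 for Hoxb5, and log2 difference 2.46 for Hoxb4), and that of Hoxb4 also without the second (2.21) or without the first 2D-iHepSCiEC library (1.82). Of 12 fibroblast markers 1 was called, Col1a1, which was higher with 93 and 93 counts in 2D-iHepSC and 441 and 234 in 2D-iHepSCiEC, or 2.73 and 10.4 CPM on average. The list's median log2 difference was -0.0045. Its sum went from 5.42 and 5.94 CPM to 12.6 and 14.4 CPM, with 6 markers over 3 counts in both libraries of each condition and 3 at 0 in both libraries of 2D-iHepSCiEC, against 0 such markers in 2D-iHepSC. Of the other lists in 2D-iHepSCiEC against 2D-iHepSC, 2 of 8 endothelial, 1 of 10 hepatocyte and 1 of 4 fetal hepatic markers were lower and none was higher, with median log2 differences of -0.85, -3.53 and -0.21. The part of these markers, and of reads from the human cells, in the Hoxb values was not tested.

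In 3D-iHEA against 3D-iHA 1 of 8 endothelial markers was lower and 1 of 5 cholangiocyte markers higher, and no Hox gene passed in either direction by edgeR at the adjusted or an unadjusted p under 0.05, or by DESeq2 (0 of 24), where 0.292% of all genes were higher and 0.0974% lower. Of the 24, Hoxb2, Hoxb5, Hoxb6, Hoxb8, Hoxb9 and Hoxd9 had 0 counts in every library of both conditions and could not be called. For Hoxa13 the log2 difference was -0.12 with an interval of -0.42 to 0.17, for Hoxa10 0.08 (-0.16 to 0.32), for Hoxa9 -0.07 (-0.28 to 0.14) and for Hoxa7 0.08 (-0.24 to 0.39). The test of whether the co-culture effect differed between 3D and flat growth called 0 members at an adjusted p under 0.05, where 0.852% of all genes were higher and 0.670% lower, and 1 member, Hoxb4, had an unadjusted p of 0.0193 (log2 difference -1.91 ± 0.73, adjusted p = 0.302). Hoxb2, Hoxb3, Hoxb5, Hoxb6, Hoxb7 and Hoxd9 had 0 counts in whole conditions and fitted SEs of 90.0 to 14595. The test could not call these genes, Hoxb5 included, nor Hoxb8 and Hoxb9, which had 0 counts in every culture library.

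**Figure D5:**
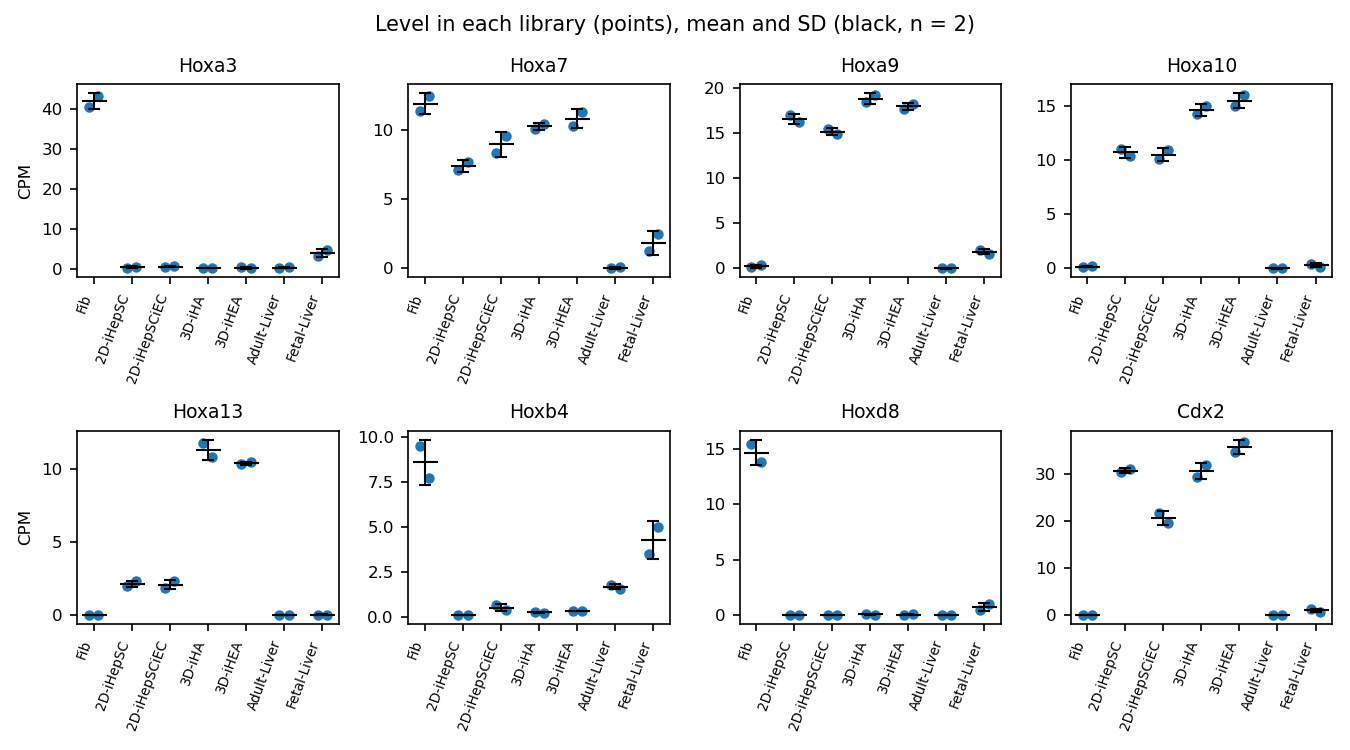
Level of 8 genes in CPM (each panel has its own axis) in each library (blue points), with the mean and SD of the 2 libraries of a condition (black). Hoxa9, Hoxa10, Hoxa13 and Cdx2 are near 0 in Fib and high in the 4 cultures, Hoxa13 steps up from flat to 3D, and Hoxa3, Hoxb4 and Hoxd8 are high in Fib.

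Cdx2 is a caudal-type homeobox gene of the ParaHox group that marks trophectoderm and intestine and is known as a regulator of Hox genes. Like the gained genes it was higher in the cultures than in Fib, and of those only Hoxa13 also had 0 counts in both Fib libraries. Cdx2 had 0 counts in both Fib libraries, 1094 and 1002 in 2D-iHepSC, 853 and 472 in 2D-iHepSCiEC, 974 and 1033 in 3D-iHA, 1154 and 1041 in 3D-iHEA, 43 and 23 in Fetal-Liver and 0 in Adult-Liver. The level in 2D-iHepSC was at least 347-fold that of Fib (adjusted p = 4.67e-14). Of the 6 caudal and ParaHox genes only Cdx2 had enough counts to be tested. Its log2 difference between 3D and flat growth was 0.39 ± 0.07 (adjusted p = 0.000118), short of 2-fold.

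Genes in and around the clusters give a view of the neighbourhood. Of 26 such non-coding and flanking genes tested, 7 were lower and 4 higher in 2D-iHepSC than in Fib, with a median log2 difference of -0.15. Over all genes tested 22.8% were lower and 23.1% higher, so these counts are no result about the neighbourhood. Of the non-coding genes inside the clusters, Hoxb3os fell from 54 and 65 counts to 0 and 0 and Hoxd3os1 from 48 and 45 to 0 and 0. The genes of the list with most counts, Hnrnpa1 and Hnrnpa3, code for RNA-binding proteins and had 18574 and 15029 counts and 9770 and 7864 counts in Fib. Skap2, the nearest listed flanking gene on the 3′ side of Hoxa, and Mtx2, on the Hoxd1 side, were expressed throughout, with 1973 and 1582 counts of Skap2 in Fib and 1548 and 1388 in 2D-iHepSC (log2 difference -0.27 ± 0.06), and 1071 and 846 counts of Mtx2 in Fib and 1526 and 1227 in 2D-iHepSC (0.52 ± 0.07). Hottip, a non-coding RNA at the 5′ end of Hoxa, had 0 to 3 counts in each library, also where Hoxa13 was high.

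The further lists are read against the same 22.8% lower and 23.1% higher over all genes. Of the cofactors that bind DNA with HOX proteins, 5 of 9 were lower and 0 higher, with a median log2 difference of -1.02. Pknox2 went from 710 and 640 counts to 0 and 1, and Meis3 from 1520 and 1316 to 136 and 109. Among 24 Polycomb genes, 3 were lower and 2 higher (median -0.33): Cbx6 fell from 6929 and 5979 counts to 836 and 846, and Cbx7 rose from 232 and 213 to 776 and 709. Among 11 Trithorax and H3K27 demethylase genes, 2 were lower and 1 higher (median -0.03), with Kmt2a, a histone methyltransferase that keeps Hox genes active, at 7233 and 6062 counts in Fib and 4360 and 3635 in 2D-iHepSC, which did not reach 2-fold (log2 difference -0.74 ± 0.08). Of 12 genes of the retinoic acid pathway, the signal that opens anterior Hox genes in the embryo, 6 were lower and 3 higher (median -0.94), with Rarg falling from 5532 and 5137 counts to 1027 and 1014 and Aldh1a1 rising from 189 and 113 to 1833 and 1644.

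Other positional factors of mesenchyme were mostly lower in 2D-iHepSC. Of 32 tested, 21 were lower and 5 higher in 2D-iHepSC than in Fib, with a median log2 difference of -3.71 against 0.08 over all genes, of which 22.8% were lower and 23.1% higher. Prrx1, a limb bud and mesenchyme gene, fell from 6666 and 5567 counts to 10 and 9, and Tbx15 from 9674 and 7878 to 196 and 188. Tbx3, which also acts in hepatoblasts, was among those that rose, from 16 and 15 counts to 536 and 547. Prrx1 is also in the list of fibroblast markers, of which 12 of 12 were lower in 2D-iHepSC.

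Between 3D and flat growth, where 12.5% of all genes tested were higher and 11.9% lower, the called counts were 0 higher and 3 lower of the 26 cluster and flanking genes, 2 and 2 of the 9 cofactors, 2 and 2 of the 24 Polycomb genes, 0 and 0 of the 11 Trithorax genes, 2 and 2 of the 12 retinoic acid genes and 3 and 7 of the 32 positional factors. In both co-culture comparisons, where at most 0.292% of all genes passed in either direction, the 114 tested genes of these 6 lists had 0 calls by edgeR at an adjusted p under 0.05 and 2-fold, with 10 at the adjusted and 17 at an unadjusted p under 0.05 in 2D-iHepSCiEC against 2D-iHepSC, and 1 and 5 in 3D-iHEA against 3D-iHA. The 0.292% is a share at the adjusted p and 2-fold together, so it is no measure for the counts at a p alone. Between Fetal-Liver and Fib, 10 of the 32 positional factors were higher, where 29.0% of all genes were, and 17 lower, where 24.5% were. Between Adult-Liver and Fetal-Liver 0 were higher, where 25.3% of all genes were, and 24 lower, where 28.8% were.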

How the data were processed

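RNA was measured in 14 libraries of 7 conditions. Per the labels and the methods of the study, the authors trimmed 150 bp paired-end reads with Trimmomatic 0.36, aligned them to GRCm38 with HISAT2 and made whole-number counts per gene with HTSeq. Other versions, the annotation release, the strand setting and the handling of reads that match several genes are not given in the sources used here. The deposited counts were raw, with 20851489 to 35143325 in total per library, and floors cover counting error only. The 95% intervals of log2 differences use the normal quantile and an SE taken back from the F statistic of the fit, which includes the spread between libraries. They are narrower than intervals from a t distribution would be.

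Counts were fitted with edgeR 4.0.16 in R 4.3.3: TMM scaling, genes with a mean of at least 5 counts over the 14 libraries, 1 term per condition, the quasi-likelihood test and Benjamini-Hochberg adjustment. A call needed an adjusted p under 0.05 and at least 2-fold (for the co-culture effect that differs between 3D and 2D, the adjusted p alone). CPM used the TMM-scaled library sizes, and levels per kilobase the union of exons in the GENCODE annotation of GRCm38. Folds against a group with 0 counts were set against 3 counts in each library and are lower bounds. The fit was tested on simulated data. The second 3D-iHEA column names 2 samples and was used without a number. Equal library numbers did not pair libraries: the correlations of their differences were -0.05 to 0.03 over 15 pairs of conditions. The members, gene lists and tests were chosen with earlier results of these data known. Values were given per library for members that were kept, gained or called in a 3D or co-culture comparison and for up to 3 of the highest Fib members per cluster, with up to 4 genes named per further list. Genes named outside this rule were chosen after their values were seen. They include Hoxa4, Hoxa6, Hoxa11, Hoxaas2, Hoxaas3, Hoxb9, Hoxd4, Hottip, Tbx4, Tbx5, Col1a1, Skap2, Mtx2 and the Hoxc genes. Some genes that the rule names are counted in totals but not reported here. Alternatives were other filters, scalings and tests (DESeq2 1.42.0), a replicate block, subsets of libraries and leaving out each library.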

Additional observations from a re-analysis of the deposited data

Results flagged for a closer look

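No Hox gene met a rule for a closer look: in 12 groups of 4 flat or 4 3D libraries with a mean of at least 1 CPM, none had a library far from the other 3, and none of the 24 tested had a co-culture effect that differed between 3D and flat growth at an adjusted p under 0.05 (edgeR). For members with 0 counts in whole conditions, such as Hoxb5, the test of that difference could not make a call. In the other lists, cell type markers included, 5 genes had such a difference. For Cdx2 the effect of endothelial cells was -0.57 ± 0.10 on the log2 scale in flat culture and 0.22 ± 0.09 in 3D, and the difference between them was 0.79 ± 0.14 (edgeR, adjusted p = 0.00974). For Cbx6, a Polycomb subunit with 836 and 846 counts in 2D-iHepSC, 1265 and 729 in 2D-iHepSCiEC, 1832 and 1767 in 3D-iHA and 1601 and 1317 in 3D-iHEA, the difference was -0.55 ± 0.11 (edgeR, adjusted p = 0.0217). Among the markers it was -3.42 ± 0.67 for Col1a1 of fibroblasts (adjusted p = 0.0164), and for the cholangiocyte markers Epcam and Krt19 it was 0.83 ± 0.13 (adjusted p = 0.00433) and 0.55 ± 0.10 (adjusted p = 0.0127).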

How the results depend on the processing

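Of 88 calls of a Hox gene recomputed 1123 times, 1090 values kept their direction and their call, 33 (15 of the calls, in 11 genes) kept the direction and lost the call, and 0 reversed. DESeq2 gave no adjusted p for Hoxb5 in 2D-iHepSCiEC against 2D-iHepSC, so that call is not counted as lost, and it did not call Hoxb9 in any comparison. In Adult-Liver against Fetal-Liver calls lost without 1 of the libraries included those of Hoxa10, Hoxb2 and Hoxb7. Of 247 counts recomputed, 228 stayed within 1.5 times. A stricter filter, set at 3 on the mean log2(count + 1), left 10 members to test. For 2D-iHepSC against Fib 5 were lower, where 21.5% of all genes were, and for 2D-iHepSCiEC against 2D-iHepSC 1 was higher, where 0.205% were. For Fetal-Liver against Fib 1 was higher and 5 lower, where 26.1% and 24.7% of all genes were. For 2D-iHepSC against Fetal-Liver 5 were lower, where 25.25% were. For Adult-Liver against Fetal-Liver 9 were lower, and in the main fit 28.8% of all genes were. By the adjusted p alone, 3D against 2D had 4 higher. DESeq2 gave 1 higher for 2D-iHepSCiEC against 2D-iHepSC. At 2 CPM for detection, 1 gene was kept. The replicate block, tried although the numbers did not pair the libraries, left 1 lower in 3D against 2D, and the same 13 libraries without the block, an alternative chosen after seeing the data, also gave 1. The block changed no other count by over 1.5 times. When a library was left out, the lower genes of 3D against 2D numbered 1 to 2 and the higher ones of 2D-iHepSCiEC against 2D-iHepSC 0 to 2. Upper-quartile scaling moved the median log2 difference of all genes most for 2D-iHepSC against Fetal-Liver, from -0.09 to -0.36. Depth limits the silent genes, for which a count of 3 is 0.0854 to 0.144 CPM of the total. Beyond the number of genes a filter left, the cause was not tested.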
